A study of Homo sapiens with 12 samples.

Results

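MHC class II molecules and CIITA, the co-activator that switches their genes on, were followed in 2 Hodgkin lymphoma cell lines after transduction with the transcription factor EBF1. The genes were CIITA, CD74, HLA-DRA, HLA-DPA1, HLA-DQA1, HLA-DQB1, HLA-DMA, HLA-DMB, HLA-DOA and HLA-DOB, and every row of the expression table whose platform annotation lists 1 of these symbols was taken. A row holds 1 reading per array, identified by a probe-set number. This gave 25 rows of 32321, of which 20546 carry a gene symbol. Of the 25 rows, 12 list 1 symbol only and 13 list several, and rows of the second kind are named here with their symbols joined by a stroke. CIITA, HLA-DPA1, HLA-DQA1, HLA-DQB1, HLA-DMA, HLA-DMB, HLA-DOA and HLA-DOB, 8 of the 10 symbols, have a row of their own. CD74 is read only by a CD74/ROS1 row, whose RefSeq accessions are all of CD74. HLA-DRA is read only by 3 HLA-DRA/HLA-DQA1 rows. The 1 RefSeq accession among the 8 of each row is of HLA-DRA, and any part of HLA-DQA1 in their readings was not tested.

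L-428 and L-1236 are established lines from Hodgkin lymphoma, a tumour of B-cell origin whose cells have lost much of the B-cell programme. Each line carried either tGFP, a fluorescent marker protein, or tGFP linked through an IRES to EBF1, so that the marker and EBF1 come from the same transcript. Total RNA came from cells sorted for tGFP after 8 days of culture, and the culture time and the sort were common to all 4 groups. The 4 groups are the tGFP controls and the tGFP/EBF1 cells of each line, with 3 arrays each that the labels call independent. The labels do not say whether these came from separate transductions, so p-values measure the spread between these samples. Each line is 1 source, and a difference between lines cannot be told apart from one between their cultures or transductions.

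MHC class II molecules carry peptides from engulfed or recycled proteins to the cell surface, where CD4+ T cells read them. Each is a pair of an alpha and a beta chain (HLA-DR, HLA-DP and HLA-DQ). The chains meet the invariant chain, CD74, which fills the groove until HLA-DM, the product of HLA-DMA and HLA-DMB, helps to exchange its remnant for a peptide. HLA-DO, made from HLA-DOA and HLA-DOB, restrains HLA-DM in B cells. CIITA does not bind DNA itself. It is recruited by RFX, CREB and NF-Y proteins that sit on the X and Y boxes of class II promoters. Class II molecules are a normal feature of B cells, and EBF1 is a factor required early in B-cell development.

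The promoter stretches below are shown because the factor lists described later act through them. They are the RefSeq promoters (assembly GRCh38.p14) of the 6 member genes in which letters of the Y box lay about where class II promoters carry it. The strand printed is that of the gene, 5′ to 3′, and capitals mark the letters searched for: GATGANG for the core of the X box and ATTGG, or CCAAT on the other strand, for the core of the Y box. The letters were chosen after these promoters had been looked at.
CD74, chr5:150412939-150413023, minus strand: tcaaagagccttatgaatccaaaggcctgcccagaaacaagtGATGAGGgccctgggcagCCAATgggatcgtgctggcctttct
HLA-DQA1, chr6:32637278-32637362, plus strand: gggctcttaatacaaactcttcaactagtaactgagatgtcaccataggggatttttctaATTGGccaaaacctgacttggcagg
HLA-DQB1, chr6:32666721-32666805, minus strand: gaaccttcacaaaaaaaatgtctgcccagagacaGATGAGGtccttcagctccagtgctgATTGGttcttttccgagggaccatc
HLA-DMA, chr6:32953152-32953236, minus strand: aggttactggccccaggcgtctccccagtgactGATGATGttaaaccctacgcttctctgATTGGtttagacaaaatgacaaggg
HLA-DOA, chr6:33009634-33009718, minus strand: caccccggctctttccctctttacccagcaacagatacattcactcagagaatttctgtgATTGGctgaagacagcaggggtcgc
HLA-DOB, chr6:32817076-32817160, minus strand: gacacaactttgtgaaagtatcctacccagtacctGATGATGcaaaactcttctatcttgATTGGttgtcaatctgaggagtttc

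Promoter entries matched 8 of the 10 member genes, with 9 entries because HLA-DPA1 has 2. In the 250 bases before the start, searched on both strands, the Y-box letters lay in 7 of the 9 entries and in 32% of all 35116 promoters. The X-box letters GATGANG lay in 5 of the 9, those of CD74, HLA-DQB1, HLA-DMA, HLA-DMB and HLA-DOB, and in 9.85% of all promoters. An X box followed on the same strand by a Y box, 5 to 30 bases apart, lay in the promoters of HLA-DQB1, HLA-DMA and HLA-DOB and in 0.322% of all. The Y-box letters began 68 bases before the start of HLA-DQA1, 88 before HLA-DQB1, 79 before HLA-DMA, 67 before HLA-DOA and 98 before HLA-DOB. Letters of the EBF1 motif, TCCC and GGGA with any 2 bases between them, were in none of the 9 entries and in 1.06% of all promoters, which says only that these letters are not in these windows. The X-box and Y-box letters of one promoter did not overlap. The promoters of CIITA and HLA-DRA were not analysed here.

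**Figure D1:**
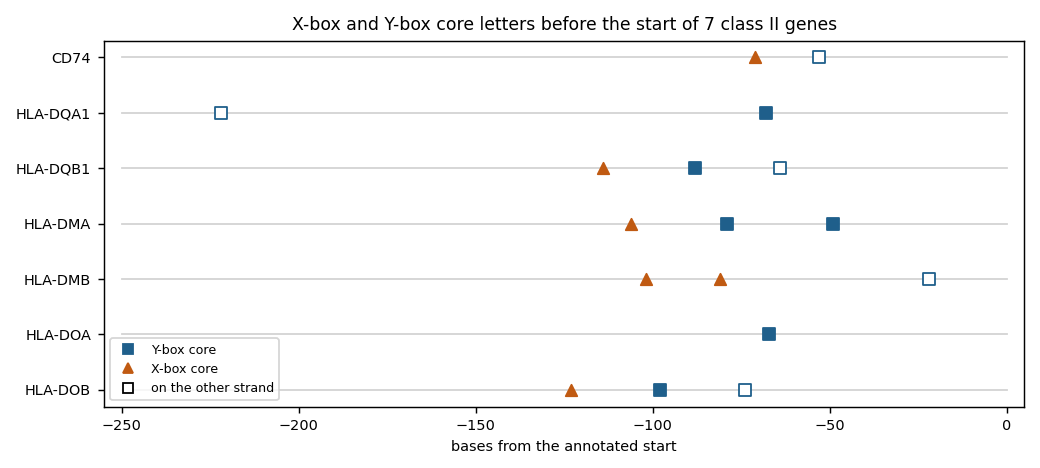
X-box core letters (triangles) and Y-box core letters (squares) in the 250 bases before the annotated start of 7 class II genes, with the distance from the start on the horizontal axis in bases; open symbols are matches on the other strand. In HLA-DQB1, HLA-DMA and HLA-DOB a triangle stands before a filled square, with Y-box letters 88, 79 and 98 bases before the start, while HLA-DQA1 and HLA-DOA have squares only.

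Array medians lay between 7.19 and 7.31 on the log2 scale of the table. Replicate 3 of L-428 tGFP had a narrower interquartile range (2.28) than the others of its group (2.49 and 2.47), and replicate 1 of L-1236 tGFP/EBF1 likewise (2.17 against 2.31 and 2.26). The mean over the 25 class II rows was 9.66 on the first of these arrays against 9.87 and 9.92 on its companions, and 8.70 on the second against 8.73 and 8.68. Results that rest on either array are given with and without it below. The EBF1 row, which also lists PDGFRB, averaged 8.45 in the controls and 12.96 with EBF1 in L-428, and 7.17 and 13.15 in L-1236. The 7 Hodgkin cell markers had array means between 9.36 and 10.2, and 1 of them, CCL22, lay below the array median in L-428 tGFP (7.07). Of the 5 B-cell markers with a row, 4 lay below the array median in L-428 tGFP and 3 in L-1236 tGFP. Of 9 markers of monocytes, macrophages and dendritic cells, the other cells that carry class II, 8 lay below it in every group, with array means over the list between 6.29 and 6.49.

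Control cells of the lines were compared first, as the level from which EBF1 acted. In the tGFP controls class II rows read higher in L-428 than in L-1236 in most cases. With a Benjamini-Hochberg adjusted p of at most 0.05 (limma, over the 20546 rows with a symbol), 19 of 25 rows were higher in L-428, 4 were lower and 2 did not pass. Of all rows tested, 26.1% were higher and 21.7% lower. With a difference of at least 2-fold asked as well, 12 class II rows were higher and 3 lower, against 4.16% and 3.04% of all rows. The median over the class II rows was 0.93 on the log2 scale, against -0.0063 over all rows. These are bulk RNA readings, in which fewer cells with a transcript and less transcript per cell cannot be told apart.

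CIITA, the co-activator, read 8.67, 8.60 and 8.65 in the L-428 tGFP arrays and 7.89, 7.89 and 7.81 in the L-1236 tGFP arrays. All 3 L-428 arrays lay above all 3 L-1236 arrays, a difference of 0.78 ± 0.06 (SE, n = 3 per group), or 1.71-fold (limma, adjusted p = 1.12e-09). The CD74/ROS1 row, for the invariant chain, read 12.73, 13.05 and 12.42 in L-428 tGFP and 11.53, 11.45 and 11.40 in L-1236 tGFP. It was 2.42-fold higher in L-428 (limma, adjusted p = 4.11e-09), again without overlap.

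The classical chains gave 2 patterns. The brightest HLA-DRA/HLA-DQA1 row, which lists the alpha chain of HLA-DR with that of HLA-DQ, read 12.60, 12.82 and 12.32 in L-428 tGFP. In L-1236 tGFP it read 11.22, 11.16 and 11.15, a 2.65-fold difference. The other 2 HLA-DRA/HLA-DQA1 rows were 4.83-fold and 2.90-fold higher in L-428. The rows of HLA-DPA1, the alpha chain of HLA-DP, averaged 12.72 ± 0.25 and 12.65 in L-428 tGFP against 11.79 ± 0.07 and 11.78 in L-1236 tGFP (SD, n = 3), 1.90-fold and 1.83-fold higher in L-428. Chains outside the 10 genes differed likewise: HLA-DPB1, the beta chain of HLA-DP, averaged 12.52 against 10.87 (a difference of 1.65), and HLA-DRB5 8.17 against 7.12 (1.05).

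HLA-DQA1, the alpha chain of HLA-DQ, was the other way round in its own row. It read 8.0, 8.07 and 7.98 in L-428 tGFP and 9.92, 9.85 and 9.69 in L-1236 tGFP. The L-428 arrays all lay below, by 1.81 ± 0.07 (SE) or 3.5-fold (limma, adjusted p = 7.21e-14). The brightest of the 3 HLA-DQA2/HLA-DQA1 rows went the opposite way, with 13.02, 13.20 and 12.74 in L-428 tGFP against 11.77, 11.60 and 11.71 in L-1236 tGFP, 2.45-fold higher in L-428. The second HLA-DQA2/HLA-DQA1 row differed by -0.06 (adjusted p = 0.715) and the third by 0.32 (adjusted p = 0.00355). HLA-DQB1, the beta chain, showed the same split. Its own row averaged 7.15 in L-428 tGFP and 7.68 in L-1236 tGFP, 1.45-fold lower in L-428 (adjusted p = 7.38e-06), while the 3 HLA-DQB2/HLA-DQB1 rows were 3.63-fold, 1.91-fold and 1.77-fold higher in L-428. The HLA-DQB1 row lists a single accession, which is no RefSeq transcript, and its means lie near the array medians. Which transcripts each HLA-DQ row reads in each line was not tested, so no order of the lines is given for HLA-DQ as a whole. The 3 rows that also list HLA-DRB genes, 1 HLA-DRB1/HLA-DQB1 row and 2 rows with HLA-DRB6, HLA-DRB5, HLA-DRB4, HLA-DRB3, HLA-DRB1 and HLA-DQB1, were 1.85-fold, 2.45-fold and 3.92-fold higher in L-428.

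HLA-DM and HLA-DO, the peptide-loading pair and its inhibitor, differed between lines in different directions. The brighter HLA-DMA row read 10.71, 10.72 and 10.21 in L-428 tGFP and averaged 9.27 ± 0.04 (SD, n = 3) in L-1236 tGFP, 2.42-fold higher in L-428. The dimmer HLA-DMA row averaged 6.29 and 6.68, below the array medians, with a difference of -0.39 that did not pass (adjusted p = 0.226). HLA-DMB was 2.22-fold higher in L-428, at 10.27, 10.22 and 9.94 against a mean of 9.0 ± 0.05. HLA-DOA was 3.46-fold and 7.75-fold higher in L-428 in its 2 rows. HLA-DOB, which encodes the partner chain of HLA-DOA, was lower in L-428. Its brighter row read 7.84, 7.88 and 7.95 in L-428 tGFP and 9.49, 9.47 and 9.45 in L-1236 tGFP, a difference of -1.58 (limma, adjusted p = 6.14e-13), and its dimmer row differed by -2.22. The alpha and beta chains of HLA-DO thus differed in opposite directions between the lines, in both rows of each gene and with no overlap of arrays.

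With EBF1 in both lines the order of the lines was much the same. Of the 25 rows, 19 were higher in L-428 and 3 lower, against 28.2% and 22.3% of all rows. At 2-fold or more the counts were 14 and 2, against 4.85% and 2.80%. CIITA was 1.95-fold higher in L-428, the brightest HLA-DRA/HLA-DQA1 row 4.24-fold and the brightest HLA-DQA2/HLA-DQA1 row 4.94-fold. HLA-DQA1 in its own row stayed lower in L-428, by 0.70 (adjusted p = 6.1e-08), and HLA-DQB1 in its own row differed by 0.04 (adjusted p = 0.708).

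**Figure D2:**
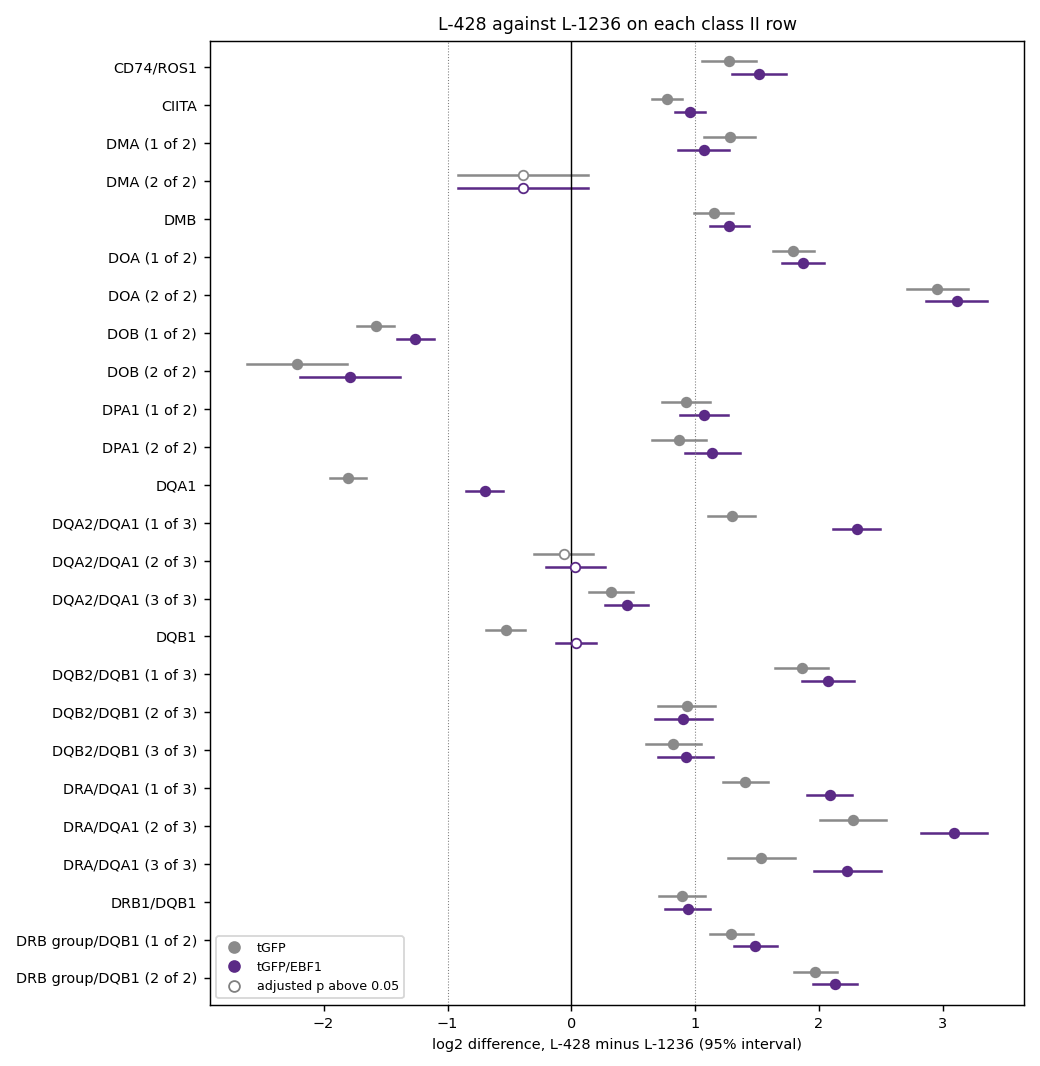
Difference between the lines, L-428 minus L-1236, for each of the 25 class II rows (log2, horizontal axis), in tGFP controls (grey) and in tGFP/EBF1 cells (purple), with 95% intervals from limma; open symbols have an adjusted p above 0.05, dotted lines mark 2-fold and DRB group stands for the rows with 5 HLA-DRB symbols. Most rows lie to the right, while HLA-DOB and the rows of HLA-DQA1 and HLA-DQB1 alone lie to the left in the controls.

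The study's own question was what EBF1 changed within each line. In L-1236 part of the class II rows fell with EBF1, HLA-DQA1, the brightest HLA-DQA2/HLA-DQA1 row and the HLA-DRA/HLA-DQA1 rows by the largest amounts. Of the 25 rows, 10 fell with an adjusted p of at most 0.05 and none rose, where 5.95% of all rows fell and 3.69% rose, and 15 did not pass. Falls of 2-fold or more were seen in 2 class II rows, HLA-DQA1 and the brightest HLA-DQA2/HLA-DQA1 row, and in 0.0584% of all rows. The change was negative in 23 of 25 rows, with a median of -0.23 against 0.0080 over all rows. In 15 of 25 rows every EBF1 array lay below every control array, as in 15.1% of all rows. Of the 12 rows with 1 symbol 3 fell, and of the 13 with several symbols 7 fell. Without both arrays of narrow range 11 rows fell and none rose. The share of all rows that fell in that setting is not given here.

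CIITA fell slightly. It read 7.89, 7.89 and 7.81 in L-1236 tGFP and 7.64, 7.70 and 7.59 with EBF1. The groups did not overlap, and the change was -0.22 ± 0.06 (SE, n = 3 per group; 95% interval -0.34 to -0.10), or 1.17-fold (limma, adjusted p = 0.0185). The call was lost when replicate 1 or 2 of L-1236 tGFP or replicate 3 of L-1236 tGFP/EBF1 was left out (adjusted p up to 0.100). The CD74/ROS1 row read 11.53, 11.45 and 11.40 in the controls and 11.18, 11.04 and 11.13 with EBF1, without overlap. Its fall of 0.34 was near the threshold (limma, adjusted p = 0.0442) and was lost in 9 of 17 alternatives, which include leaving out any single L-1236 array (adjusted p up to 0.156).

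HLA-DQA1 showed the largest change among the 25 rows. It read 9.92, 9.85 and 9.69 in L-1236 tGFP and 8.69, 8.68 and 8.53 with EBF1, so that the groups stood apart by much more than their spread. The fall was 1.19 ± 0.07 (SE, n = 3 per group; 95% interval of the change -1.33 to -1.04), or 2.28-fold (limma, adjusted p = 2.18e-09), and it passed in all 18 alternatives. The brightest HLA-DQA2/HLA-DQA1 row read 11.77, 11.60 and 11.71 in the controls and 10.55, 10.53 and 10.73 with EBF1, a 2.13-fold fall (limma, adjusted p = 1.77e-07). The other 2 HLA-DQA2/HLA-DQA1 rows changed by -0.25 (adjusted p = 0.201) and -0.13 (adjusted p = 0.448), which did not pass. The HLA-DQ alpha rows that passed therefore moved the same way in L-1236, although they order the lines differently.

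The HLA-DRA/HLA-DQA1 rows all fell. The brightest read 11.22, 11.16 and 11.15 in L-1236 tGFP and 10.37, 10.34 and 10.34 with EBF1, a 1.77-fold fall with no overlap (limma, adjusted p = 2.68e-06). The second read 9.56, 10.08 and 10.24 against 8.94, 9.04 and 8.96, a 1.97-fold fall (adjusted p = 3.17e-05), in which replicate 1 of the controls lay nearest the EBF1 arrays. The third averaged 7.15 ± 0.15 and 6.57 ± 0.29 (SD, n = 3), a 1.5-fold fall (adjusted p = 0.00539).

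Beta-chain rows changed less. HLA-DQB1 in its own row read 7.76, 7.49 and 7.78 in L-1236 tGFP and 7.21, 7.0 and 7.15 with EBF1. It fell 1.47-fold without overlap (limma, adjusted p = 6.9e-05), to means near the array medians. The 3 HLA-DQB2/HLA-DQB1 rows changed by -0.23, -0.10 and -0.12, with adjusted p-values of 0.193, 0.677 and 0.588. The brighter row with 5 HLA-DRB symbols read 10.89, 10.87 and 10.79 and then 10.52, 10.44 and 10.55, a 1.27-fold fall (adjusted p = 0.00912). The dimmer one fell 1.25-fold (adjusted p = 0.0186), a call lost in 7 of 17 alternatives, among them leaving out both arrays with a narrow range. The HLA-DRB1/HLA-DQB1 row changed by -0.18 (adjusted p = 0.271). HLA-DPB1, outside the 10 genes, changed by -0.12 (adjusted p = 0.463).

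The remaining genes did not pass in L-1236 with all 12 arrays and the values as deposited. The HLA-DPA1 rows changed by -0.22 (95% interval -0.41 to -0.02, adjusted p = 0.172) and -0.34 (adjusted p = 0.0501), the second just past the threshold. With quantile normalization both passed (adjusted p = 0.00896 and 0.00142). The second also passed without both arrays of narrow range (-0.22, adjusted p = 0.0343). HLA-DMA changed by 0.08 in its brighter row (95% interval -0.13 to 0.28) and HLA-DMB by -0.19 (95% interval -0.34 to -0.03, adjusted p = 0.145). HLA-DOA changed by -0.03 in its brighter row (adjusted p = 0.878). HLA-DOB read 9.49, 9.47 and 9.45 in the controls and 9.13, 9.41 and 9.30 with EBF1, a change of -0.19 (adjusted p = 0.0982). Without replicate 2 of L-1236 tGFP/EBF1 this row passed (-0.26, adjusted p = 0.0265), as did the second HLA-DQA2/HLA-DQA1 row (-0.38, adjusted p = 0.0298) and the dimmer HLA-DPA1 row (-0.40, adjusted p = 0.0349). The dimmer HLA-DOB row passed without replicate 2 of L-1236 tGFP (-0.63, adjusted p = 0.0317), and the dimmer HLA-DOA row without both arrays of narrow range (-0.30, adjusted p = 0.0228). What follows is for all 12 arrays and the values as deposited. The interval of HLA-DMA leaves room for small changes in either direction. Those of HLA-DMB and the brighter HLA-DPA1 row lie below 0. The intervals are not adjusted for the number of rows tested, and neither row passed after adjustment in this setting.

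**Figure D3:**
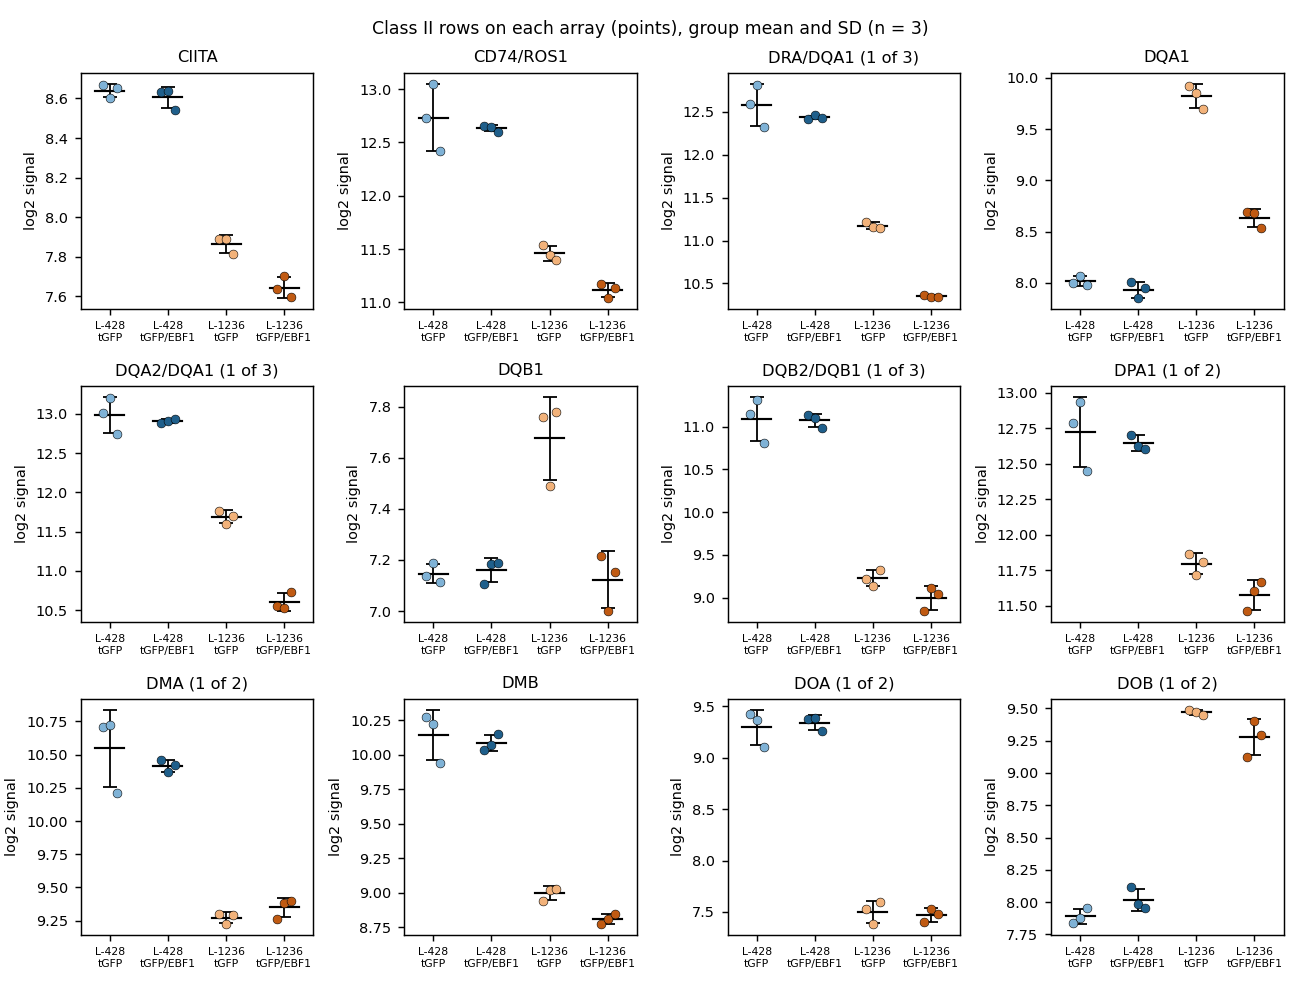
Log2 signal of 12 class II rows on each array (points), with group means (long bars) and SD (whiskers, n = 3), for L-428 (blue) and L-1236 (orange), tGFP in the lighter and tGFP/EBF1 in the darker tone; the vertical axes do not start at 0 and differ between panels, so levels are not to be compared across rows. HLA-DQA1 falls from 9.82 to 8.64 in L-1236 and stands at 8.02 and 7.93 in L-428.

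In L-428 no class II row passed with EBF1 in either direction, where 4.34% of all rows did, 2.62% upward and 1.72% downward. None of the 25 rows had an unadjusted p under 0.05 either (limma), against 14.3% of all rows. The changes lay between -0.16 and 0.13, were negative in 17 rows and had a median of -0.07 against 0.0037 over all rows. CIITA read 8.67, 8.60 and 8.65 in the controls and 8.63, 8.64 and 8.54 with EBF1, overlapping values with a change of -0.03 (95% interval -0.16 to 0.09). HLA-DQA1 read 8.0, 8.07 and 7.98 and then 8.0, 7.85 and 7.95, a change of -0.08 (95% interval -0.23 to 0.07). The interval excludes a fall of the size seen in L-1236. CD74/ROS1 read 12.65, 12.64 and 12.60 with EBF1, within the wide range of its controls.

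That absence of calls rests in part on replicate 3 of L-428 tGFP, which was the lowest control array of its line in 17 of 25 class II rows. How often it was lowest over all rows is not given here. Bright genes outside class II, such as B2M and PRDM1, also read lowest on it, while dim ones such as CD14 and CD3E read highest. With replicate 3 of L-428 tGFP left out, 3 class II rows fell: HLA-DMA in its brighter row by 0.30 (limma, adjusted p = 0.00508), the brightest HLA-DRA/HLA-DQA1 row by 0.27 (adjusted p = 0.0161) and the brighter row with 5 HLA-DRB symbols by 0.27 (adjusted p = 0.0207). With replicate 1 of L-1236 tGFP/EBF1 left out as well, 5 rows fell, with CD74/ROS1 (-0.26, adjusted p = 0.0478) and the brighter HLA-DPA1 row (-0.21, adjusted p = 0.0404) added. CIITA and HLA-DQA1 were not among them. Genes of other lists also fell in L-428 without both arrays and not with all 12, among them CTSD, LGMN, SPPL2A, EP300, FSCN1 and TRAF1. The share of all rows that fell with arrays left out is not given here. The part of the narrower range of replicate 3 of L-428 tGFP in these values was not tested.

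**Figure D4:**
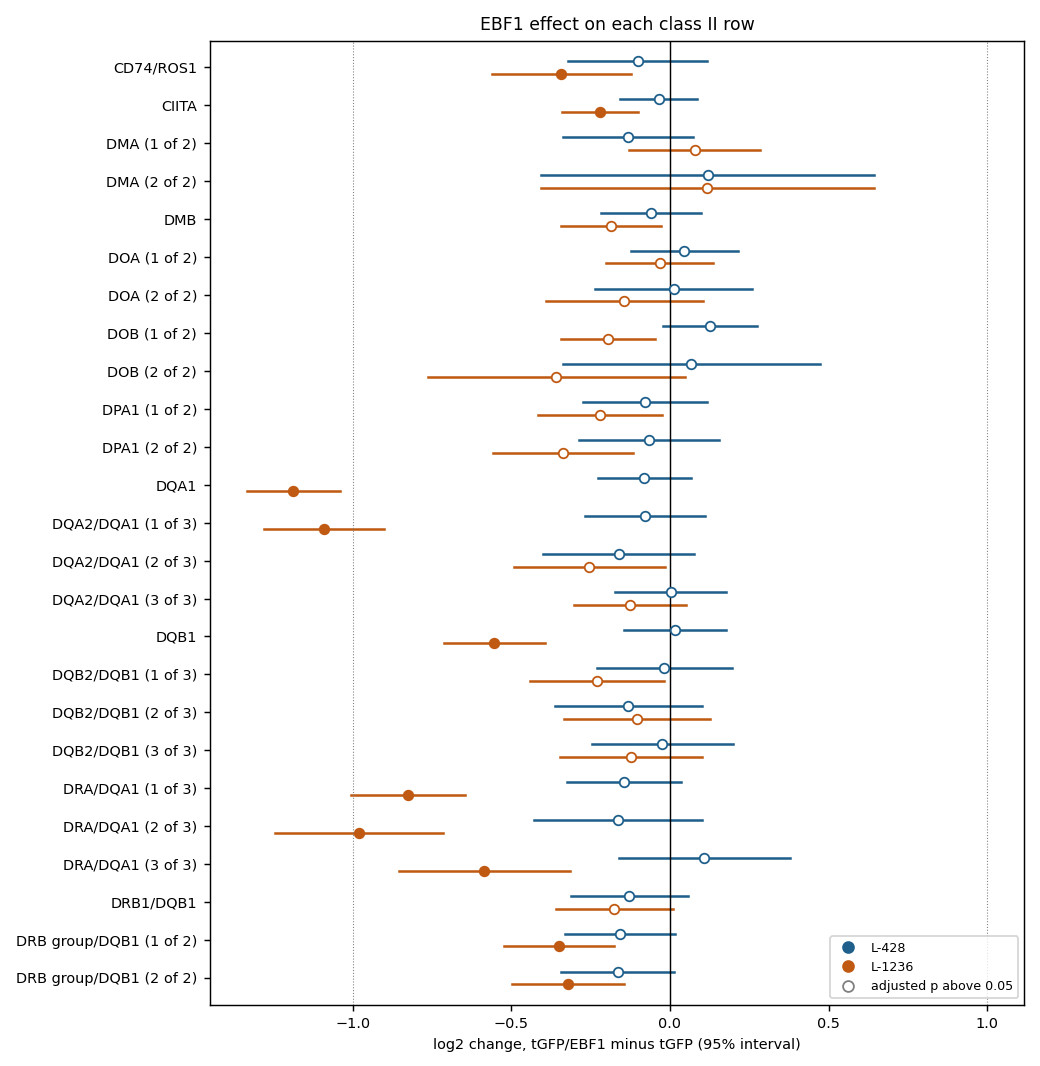
Change with EBF1, tGFP/EBF1 minus tGFP, for each of the 25 class II rows (log2, horizontal axis) in L-428 (blue) and L-1236 (orange), with 95% intervals from limma; open symbols have an adjusted p above 0.05 and dotted lines mark 2-fold. The L-428 values lie between -0.16 and 0.13, and the 10 filled L-1236 symbols all lie below 0, with HLA-DQA1 at -1.19.

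Whether EBF1 acted differently in the lines was tested as the difference of the changes, L-428 minus L-1236. It was above 0 in 6 of 25 rows with an adjusted p of at most 0.05 and below 0 in none, against 3.38% of all rows above and 1.79% below. Without both arrays of narrow range it was above 0 in 7 rows and below 0 in 1, with no share of all rows given for that setting. HLA-DQA1 differed by 1.10 ± 0.10 (SE; limma, adjusted p = 1.79e-06) and the brightest HLA-DQA2/HLA-DQA1 row by 1.01 (adjusted p = 7.58e-05). HLA-DQB1 in its own row differed by 0.57 (adjusted p = 0.00347). Its L-428 control mean (7.15) was already near the array medians and near its L-1236 mean with EBF1 (7.12). Whether this row, or the HLA-DQA1 row with its L-428 control mean of 8.02, could read lower in L-428 was not tested. The 3 HLA-DRA/HLA-DQA1 rows differed by 0.68 (adjusted p = 0.00206), 0.82 (adjusted p = 0.00983) and 0.69 (adjusted p = 0.0314). The last was lost in 11 of 22 alternatives, with an adjusted p up to 0.112. CIITA differed by 0.19 (adjusted p = 0.246) and CD74/ROS1 by 0.24 (adjusted p = 0.465), so a different response of these genes in the lines was not shown. The brighter row of HLA-DOB differed by 0.32 (adjusted p = 0.0723).

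The factors that hold the class II promoters changed little, apart from 1 gene. Of 7 with a row, NFYA alone passed, in both lines, and it rose; ATF1 was not analysed here. NFYA, a subunit of the NF-Y complex that binds the Y-box letters printed above, read 9.28, 9.19 and 9.02 in L-428 tGFP and 9.53, 9.52 and 9.49 with EBF1. In L-1236 it read 9.86, 9.83 and 9.82 and then 10.34, 10.41 and 10.42. It rose by 0.35 (limma, adjusted p = 0.00312) and by 0.55 (adjusted p = 1.18e-05), without overlap in either line. The subunits of RFX, the complex of the X box, gave 0.06 and 0.07 for RFX5, 0.03 and -0.07 for RFXANK and -0.03 and -0.18 (adjusted p = 0.0657) for RFXAP in L-428 and L-1236. The medians over the 7 genes were 0.03 and 0.02. RFXAP also fell in L-1236 with quantile normalization, and NFYC in L-428 without the arrays of narrow range.

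Upstream of CIITA, 13 genes for interferon-gamma signalling and for the B-cell and myeloid factors of its promoters were measured. In L-428 IRF1, IRF8 and SPIB rose and JAK2 and CREM fell, and in L-1236 CREM fell. IRF1, an interferon-induced factor that acts on CIITA, averaged 10.07 ± 0.19 and 10.66 ± 0.06 (SD, n = 3) in L-428, a rise of 0.58 (limma, adjusted p = 9.4e-05). In L-1236 IRF1 changed by 0.24 (adjusted p = 0.0571), and the difference between lines did not pass (0.35, adjusted p = 0.0748). IRF8 rose by 0.46 (adjusted p = 0.00114) and SPIB by 0.39 (adjusted p = 0.00382) in L-428, with 0.22 and 0.06 in L-1236, where neither passed. The falls of JAK2 (-0.24) and CREM (-0.21) in L-428 were lost with median centring, and that of CREM in L-1236 (-0.30, adjusted p = 0.00103) was not. Without the arrays of narrow range IRF1, IRF4, IRF8 and TCF3 also rose in L-1236. With quantile normalization these 4 and USF1 rose there and IFNGR1 fell. PAX5 also rose in L-428 under either setting. The medians over the 13 genes were 0.07 in both lines.

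Of 5 genes known to restrain CIITA or its inputs, none passed in L-428, and SOCS1, an inhibitor of JAK signalling, rose by 0.33 in L-1236 (adjusted p = 0.0192), a call lost with median centring. BACH2 changed by 0.25 in L-428 (adjusted p = 0.0722), and it passed there with quantile normalization and without the arrays of narrow range. PRDM1, which represses CIITA in plasma cells, averaged 10.84 and 10.80 in L-428 and 7.91 and 7.92 in L-1236. It was thus higher by 2.94 (limma, adjusted p = 6.07e-16) in the controls of the line with the higher CIITA reading. Between the control lines 5 of the 13 genes upstream of CIITA were higher in L-428, where 26.1% of all rows were higher and 21.7% lower. The higher ones were IRF1 (1.01), IRF8 (1.78), SPIB (0.80), CREM (0.43) and IFNGR1 (1.81), the ligand-binding chain of the interferon-gamma receptor. The B-cell factors PAX5 (-1.84) and TCF3 (-0.20), the kinase JAK1 (-0.29) and IFNGR2 (-1.38), the other chain of the receptor, were lower. Of the 7 cofactors of CIITA none passed in L-428. In L-1236 the methyltransferase CARM1 fell by 0.30 (adjusted p = 0.0144) and the acetyltransferase KAT2B rose by 0.28 (adjusted p = 0.0161), both lost with median centring.

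Genes listed for the processing and turnover of class II molecules and their antigens rose where they passed. Of 11, 4 rose in L-428 and 3 in L-1236, and none fell, where 2.62% and 3.69% of all rows rose. CTSS, the protease that trims the invariant chain, averaged 8.94 ± 0.15 and 9.31 ± 0.05 in L-428 and 7.52 ± 0.07 and 8.17 ± 0.20 in L-1236 (SD, n = 3), rises of 0.37 (adjusted p = 0.0200, lost with median centring) and 0.65 (adjusted p = 6.54e-05). IFI30, a thiol reductase of the lysosome, rose by 0.54 (adjusted p = 0.000324) and 0.38 (adjusted p = 0.00375). LAMP3 rose by 0.33 in L-428 and changed by -0.13 in L-1236 (difference 0.45, adjusted p = 0.00115), CD83 rose by 0.32 in L-428, and the cathepsin CTSB rose by 0.26 in L-1236 (adjusted p = 0.0358, lost with median centring). Without both arrays of narrow range 3 of the 11 genes, CTSD, LGMN and SPPL2A, fell in L-428. In L-1236 CTSS and IFI30 thus rose while HLA-DQA1 and the HLA-DRA/HLA-DQA1 rows fell.

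**Figure D5:**
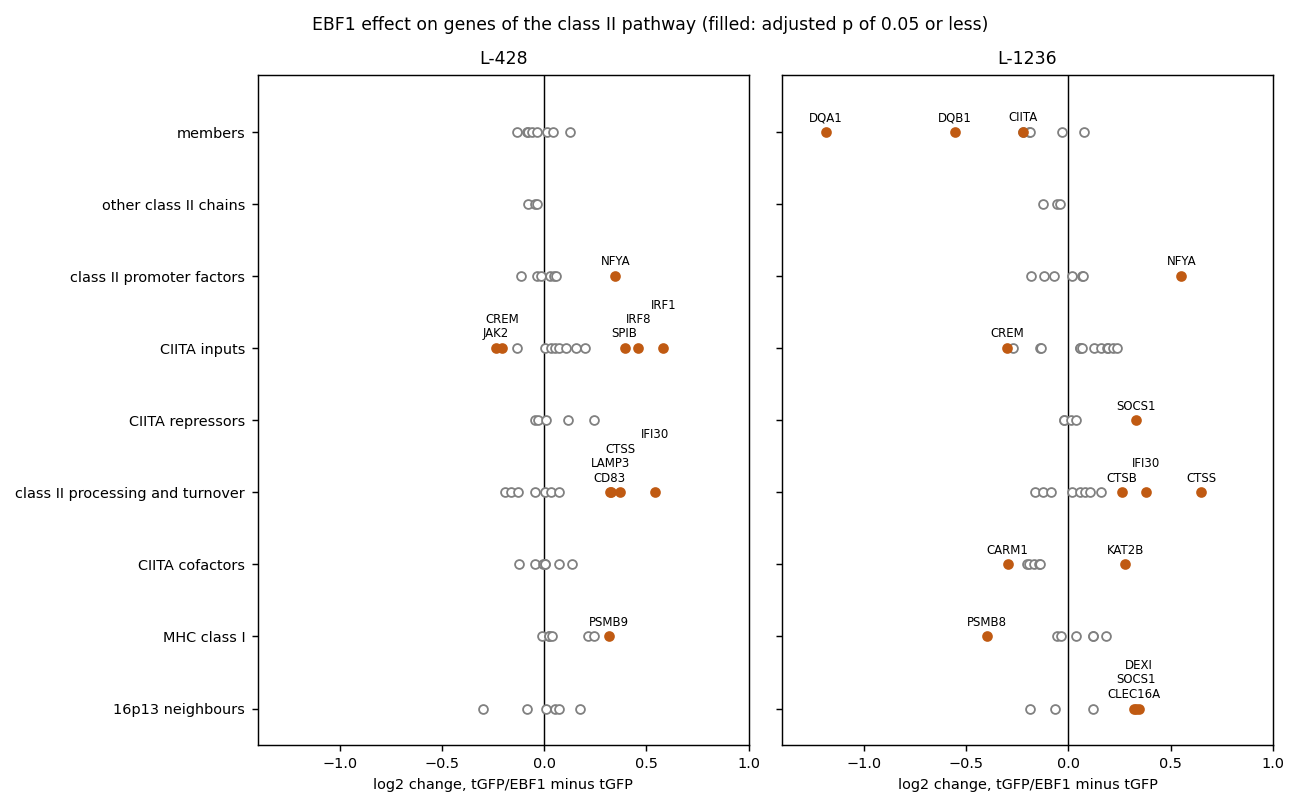
Change with EBF1 (log2, horizontal axis) in L-428 and L-1236 for the class II genes with a row of their own and for 8 lists of related or neighbouring genes, 1 point per gene; filled points, named, have an adjusted p of 0.05 or less. In L-1236 the 3 filled points of the class II genes, labelled members, lie left of 0 while NFYA (0.55), CTSS (0.65) and IFI30 (0.38) lie to the right.

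MHC class I genes and chromosomal neighbours gave mixed directions. Of 7 class I genes with a row of their own, 6 were lower in L-428 than in L-1236 in the controls and none higher. Of all rows 21.7% were lower and 26.1% higher. The median over the 7 genes was -0.66. The 6 were the peptide transporter genes TAP1 (-0.92) and TAP2 (-0.66), the light chain B2M (-0.69), TAPBP (-0.53), PSMB8 (-0.71) and PSMB9. Rows with several symbols that list the class I heavy chains HLA-B, HLA-C or HLA-F were higher in L-428: 2 HLA-C/HLA-B rows by 0.49 and 0.56 and 2 HLA-F/HLA-B rows by 0.83 and 0.58. With EBF1 the brighter HLA-F/HLA-B row fell in L-428 (-0.26, adjusted p = 0.0479) and the dimmer one in L-1236 (-0.45, adjusted p = 0.00786). In RefSeq order TAP2, PSMB8, TAP1 and PSMB9 lie between HLA-DOB and HLA-DMB on chromosome 6. PSMB8, a subunit of the immunoproteasome, read 9.33, 9.29 and 9.42 in L-1236 tGFP and 8.76, 9.04 and 9.05 with EBF1, a fall of 0.40 (limma, adjusted p = 0.00117). By the brightest row of each gene, PSMB8 was the only one of 11 neighbouring genes on 6p21 that passed in L-1236. PSMB9 (0.32, adjusted p = 0.0043) was the only one in L-428. The second of 3 TAP2 rows also rose in L-428 (0.36, adjusted p = 0.00412). The brightest and the dimmest TAP2 rows did not pass there (0.24 and 0.34, adjusted p = 0.207 and 0.683). Other calls were added under quantile normalization and without the arrays of narrow range. NLRC5, the CIITA-like co-activator of class I genes, changed by 0.02 and 0.12. Of the 6 neighbours of CIITA on 16p13, 4 were higher in L-428 in the controls, as CIITA was, and none lower. Of all rows 26.1% were higher and 21.7% lower. The 4 were NUBP1 (0.95), TVP23A (2.29), CLEC16A (0.84) and SOCS1 (0.76). With EBF1 the neighbours on 16p13 went up where they passed: DEXI (0.34, adjusted p = 0.00265), CLEC16A (0.32, adjusted p = 0.00171) and SOCS1 rose in L-1236, where CIITA fell. None of the 6 passed in L-428. Quantile normalization added falls of NUBP1 in L-1236 and TVP23A in L-428.

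Markers of other cells that carry class II were set beside these values. Of the 9 monocyte, macrophage and dendritic cell markers, none passed in L-428 and CSF1R rose in L-1236 (0.36, adjusted p = 0.00107). Their array means were 6.36 to 6.39 in L-1236 tGFP and 6.41 to 6.49 with EBF1. None of the 9 passed between the lines in either condition by a row of its own. An FCGR3B/FCGR3A row rose in L-1236 by 0.22 (limma, adjusted p = 0.0481). With EBF1 that row was lower in L-428 than in L-1236 (-0.26, adjusted p = 0.0034). Without both arrays of narrow range CSF1R also rose in L-428, FCGR3A rose in L-1236 and CD14 was lower in L-428 in the controls. Of 7 T-cell markers, CD4 (0.48) and CD3D (0.32) rose in L-1236. CD4 was lower in L-428 than in L-1236 by 1.76 in the controls.

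Rows most like CIITA and HLA-DQA1 over the 12 arrays were sought by Pearson's r among rows with 1 symbol. The 13 class II rows with several symbols were outside this search. The points share 2 lines and 4 groups, so r is a description. For CIITA the most similar rows were HACE1 (0.996), SEH1L (0.996), C11orf54 (0.994), JADE1 (0.994) and TRAP1 (0.994). None was a class II gene, among those with a row of their own. With the mean of each line subtracted they were SMYD4 (0.975), OR2L2 (0.951), DNHD1 (0.947), SNORD21 (0.947) and LY6G5B (0.943). For HLA-DQA1 they were SERPINB8 (0.994), TMEM217 (0.986), CCP110 (0.984), TUT4 (0.982) and GSTM5 (0.981), and with line means subtracted SERPINB8 (0.986), CLEC17A (0.983), PPP2R5B (0.981), CLMN (0.976) and STRA6 (0.975). SERPINB8 stood first for HLA-DQA1 in both rankings.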

How the data were processed

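The table deposited by the authors holds 1 value per row and array, on a scale taken here as log2, since another base would exceed a scanner's range. How the authors summarized and normalized these log2 values, and on which array build, is not given in the sources used here. No column belongs to another sample. Genes were named from the platform annotation. All 12 arrays were fitted in limma 3.58.1 (R 4.3.3) with 4 group means, no block, and eBayes, with 8 degrees of freedom from the arrays and 9.98 from the prior. P-values were adjusted by Benjamini-Hochberg within each of 5 comparisons over 20546 rows. A row was called changed at an adjusted p of 0.05 or less. The count with a 2-fold change, the limit of the study's design text, is given beside it. The fit was tested on simulated arrays.

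Every row that lists 1 of the 10 symbols is named. Genes of 9 pathway and neighbour lists are named where they passed, or 1 or 2 where none did, and the brightest row with 1 symbol stands for a gene; further values were chosen after they were seen. The 5 most similar rows with 1 symbol were taken for CIITA and HLA-DQA1. Members and lists were chosen with earlier results of these data known. Same-numbered arrays of a line had deviations correlated between -0.21 and 0.28, and differently numbered ones between -0.35 and 0.31. With 3 arrays per group these values cannot decide whether replicate numbers pair the samples. The replicate number was therefore used only as an alternative. Precision is limited by the number of arrays. Motif searches used Python 3.11.15, and figures matplotlib 3.10.9. Results were recomputed with each array centred on its median, quantile normalization, dim rows left out, every row tested, trend, robust variance, array weights, only the groups compared, a replicate block, other thresholds and each array left out. Leaving rows with several symbols out of the counts and weights estimated gene by gene were added after seeing the data.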

Additional observations from a re-analysis of the deposited data

Results flagged for a closer look

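The change with EBF1 differed between the lines (test of the difference in limma, L-428 minus L-1236) in 6 class II rows. The difference was 1.10 for HLA-DQA1, 1.01 for the brightest HLA-DQA2/HLA-DQA1 row, 0.57 for HLA-DQB1 in its own row, and 0.68, 0.82 and 0.69 for the 3 HLA-DRA/HLA-DQA1 rows, with adjusted p-values from 1.79e-06 to 0.0314. In each of the 6 the L-1236 reading fell with EBF1 and the L-428 reading did not pass. The HLA-DQB1 row read near the array medians in L-428 with and without EBF1, and its room to fall there was not tested. Nor was that of the HLA-DQA1 row, whose L-428 control mean (8.02) lay below its L-1236 mean with EBF1 (8.64). No group of 3 arrays was tested for a single array far from the others.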

How the results depend on the processing

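No called value reversed under any alternative. Of 2475 values of single rows, 2353 kept their side of the threshold, 57 lost and 65 gained a call. Of the 2353, 74 turned sign while passing in neither setting. In L-428 the count of class II rows that passed was 0, with 0 to 3 when each array was left out, 5 without both arrays of narrow range, 3 with array weights and 6 with weights estimated gene by gene. In L-1236 the count of 10 ran from 7 (without replicate 3 of L-1236 tGFP/EBF1) to 12 when each array was left out. It was 2 with a 2-fold limit and 3 without rows of several symbols. It was 22 with array weights, an estimate that stopped before convergence, and 17 with weights gene by gene. Among the EBF1 arrays of L-1236, that estimate gave 36.66 to replicate 3, 0.26 to replicate 1 and 0.35 to replicate 2. The mean of this group thus came almost wholly from replicate 3. Gene by gene, replicate 3 had 3.86, replicate 1 had 0.34 and replicate 2 had 0.50. No share of all rows called is given here for either weighting in any comparison. Whether calls also became more frequent outside class II was not tested. The 22 calls with array weights include a rise, that of the brighter HLA-DMA row by 0.14 (limma, adjusted p = 0.00761). For the difference of effects the count of 6 became 5 to 7, 11, 10 and, without rows of several symbols, 2. Between the lines 23 rows passed in the controls (23 whichever array was left out, 15 with a 2-fold limit, 11 without rows of several symbols) and 22 with EBF1 (22 to 23, and 10 without such rows). With the replicate number as a block the counts were 0, 11 and 6. That block was not run between the lines. The filter on dim rows left 23 of the 25 rows. Dim rows, such as the second rows of HLA-DMA and HLA-DOB, had the widest intervals.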
